A study of Rattus norvegicus with 5 samples.

Results

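Cells that carried transcripts of at least 2 of the 3 genes Kdr, Flt1 and Vwf, which are widely used to mark endothelial cells, were sought in cultures of neonatal rat ventricular cells. Of 36996 cells with at least 500 detected genes, 69 met this rule, a share of 0.187% (95% Clopper-Pearson interval 0.145 to 0.236). The 69 cells differed in what else they carried. In 13 of them, 18 to 34 genes of a 34-gene list taken from a rare cluster were also detected, while the other 56 had at most 2 genes of that list. The cluster was picked for its share of cells that met the rule and held 4 of the 13, so the split is a description. Of those 56, 42 met the rule with a single molecule of each of 2 genes, and 32 lay among cells that carried the genes of both main cell compartments of the culture at once. Such cells were 7.07% of all cells, by limits set after the data were seen. Kdr and Flt1 were found mainly in different compartments, so the rule was not neutral towards such cells and the count is a description.

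The cultures came from the ventricles of wild-type Sprague Dawley rats at postnatal day 2 and held myocytes and non-myocytes, per the labels. By its title the series concerns TBX18, a transcription factor, in the reprogramming of ventricular myocytes towards pacemaker cells. There were 5 groups with 1 library each. Cells received an adenovirus with GFP and were collected at day 3 or day 14, or an adenovirus with TBX18 and were collected at the same days. The remaining group received the TBX18 adenovirus and A83-01 at 0.2 µM, a compound that blocks TGF-beta receptor kinases. Day 14 stands in its title and 3 days in its treatment label, which leaves the length of exposure unsettled. All groups carried an adenovirus, and no culture without virus is among the samples used here. The number of animals behind a library is not given in the sources used here. With 1 library per group there is no replicate check and no p-value. All intervals are at 95% and cover counting error only.

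VEGF, the main growth factor of vessels, acts on endothelial cells through receptor tyrosine kinases. Kdr encodes VEGF receptor 2, which carries most of the growth and survival signal. Flt1 encodes VEGF receptor 1, which binds VEGF tightly, signals weakly and in its soluble form acts as a decoy. Vwf encodes von Willebrand factor, which endothelial cells store in granules and release to tether platelets. In the intact heart, capillary endothelium lies next to nearly every myocyte.

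The libraries held 6424 to 8859 barcodes and 104781422 to 202024200 UMIs, where a UMI marks 1 captured RNA molecule. The median barcode held 15610 to 17619.5 UMIs at day 14, and at day 3 22453 with GFP and 28566 with TBX18. Vwf was not listed in the 2 tables of day 3, so there the rule asked for both Kdr and Flt1. Day 14 tables were bounded at 1993 to 5592 genes per cell and day 3 tables were not, so days differ in filter and unit as well as in time. Pairs of libraries shared 7 to 20 cell barcodes, and 1 of the 69 cells had a barcode found in another library. The tables name genes by Ensembl ID alone, and 0 of 17060 IDs could be paired with a symbol. The label could therefore not be checked against endothelial markers beyond the 3 of the rule, and the cells are called here by that rule.

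The rule selected 6 of 8128 cells in the GFP library at day 3, a share of 0.0738% (0.0271 to 0.161). It selected 6 of 6489 cells, 0.0925% (0.0339 to 0.201), in the day 3 TBX18 library. The day 14 GFP library gave 20 of 6424 cells, 0.311% (0.190 to 0.480). With TBX18 at day 14 it selected 19 of 8337 cells, 0.228% (0.137 to 0.356), and with TBX18 and A83-01 18 of 7618 cells, 0.236% (0.140 to 0.373). Under this rule the shares of the 3 libraries of day 14 lay within each other's counting intervals, and so did those of day 3. With Kdr and Flt1 alone, the form of the rule that every table allows, the shares at day 14 were 0.296% with GFP, 0.216% with TBX18 and 0.171% with A83-01. No intervals are given for these 3 shares, so the overlap is stated for the full rule only.

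**Figure D1:**
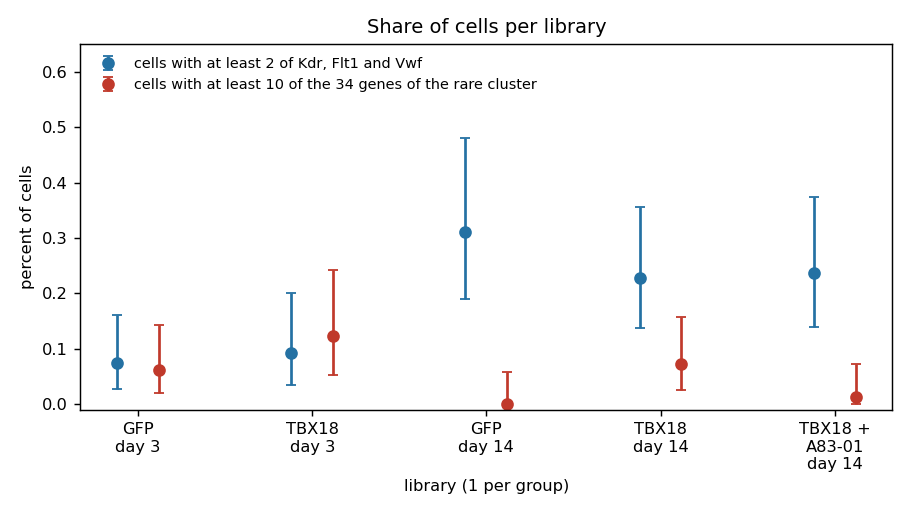
Percent of cells (y axis) in each of the 5 libraries (x axis, 1 library per group), with 95% Clopper-Pearson intervals as bars. Blue points are cells with at least 2 of Kdr, Flt1 and Vwf, and red points are cells with at least 10 of the 34 genes of the rare cluster. The blue points are higher at day 14, from 0.228% to 0.311%, with TBX18 intervals that overlap between days. The red point of the GFP library at day 14 is at 0, with an interval to 0.0574% that overlaps those of all other red points.

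Most selected cells lay at the edge of detection. Exactly 1 of the 3 genes was detected in 5211 cells, and none in 31716. Of the 69 selected cells, 42 held exactly 2 UMIs of the rule genes, 1 of each of 2 genes, and so sat just inside the rule. All 3 genes were detected in 3 cells, 2 of them with TBX18 at day 14 and 1 with A83-01. In the 3 tables of day 14, Vwf was found in 48 cells, at 1 UMI in each, and 10 of these were among the selected cells. The Vwf level was 0.0669 CPM (counts per 1e6 UMIs of the library) with GFP at day 14, 0.190 CPM with TBX18 and 0.108 CPM with A83-01. Vwf thus rested on 7 to 26 UMIs per library, and 62 of the 69 cells had both Kdr and Flt1.

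Depth moved with selection at day 14. Median UMIs were 24211 in selected cells against 15630 in the others with GFP, 18279 against 15580 with TBX18 and 25920 against 17587 with A83-01. At day 3 the medians were 19317 against 23286 with GFP and 31798 against 29068 with TBX18. When each cell was thinned to 5000 UMIs, the rule was still met by 2 cells with GFP and 0 with TBX18 at day 3. It was met by 0 cells with GFP, 6 with TBX18 and 2 with A83-01 at day 14. The GFP library of day 14 thus went from the highest share to 0 cells at equal depth. There 13 of the 20 selected cells held 1 UMI of each of 2 genes. Few such cells can keep both UMIs at 5000, so a fall towards 0 follows from their counts. Of the cells that still met the rule, 2 of 2 with GFP at day 3 had at least 10 genes of the 34-gene list. At day 14 these were 4 of 6 with TBX18 and 0 of 2 with A83-01.

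Kdr and Flt1 were detected mainly in different compartments of the culture. Of 91 clusters, made in each library without the 3 rule genes, 88 joined into 2 compartments that every library held. The other 3 clusters, of 8, 10 and 19 cells, were below the minimum of 20 cells and stayed outside, with 4 of the 6 selected cells of the day 3 TBX18 library in the one of 8 cells. Compartment 1 held 60.2% of cells with GFP and 53.1% with TBX18 at day 3. Its share was 35.7% with GFP, 17.5% with TBX18 and 36.6% with A83-01 at day 14. The number 1 was given to the compartment where EGFP was the more often detected in the day 3 GFP library, and without gene names neither compartment was given a cell type. Kdr was found in 18.4% of compartment 1 cells against 0.528% of compartment 2 cells with GFP at day 3, and in 8.79% against 0.264% with TBX18. At day 14 it was found in 23.8% against 0.871% with GFP, 20% (291 of 1455) against 0.494% with TBX18 and 30.2% against 0.436% with A83-01.

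Flt1 was distributed the other way round in all 5 libraries. It was found in 7.04% of compartment 2 cells against 0.347% of compartment 1 cells with GFP at day 3, and in 12.1% against 1.36% with TBX18. At day 14 the shares were 10.2% against 3.19% with GFP, 10.2% against 2.13% with TBX18 and 7.58% against 1.58% with A83-01. The receptor that carries the VEGF signal and its tight-binding counterpart were thus each found mainly in 1 compartment, and each in a minority of its cells. Which cell type lacks either gene is not known here, so the lower compartment is given beside the higher one as the nearest background.

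**Figure D2:**
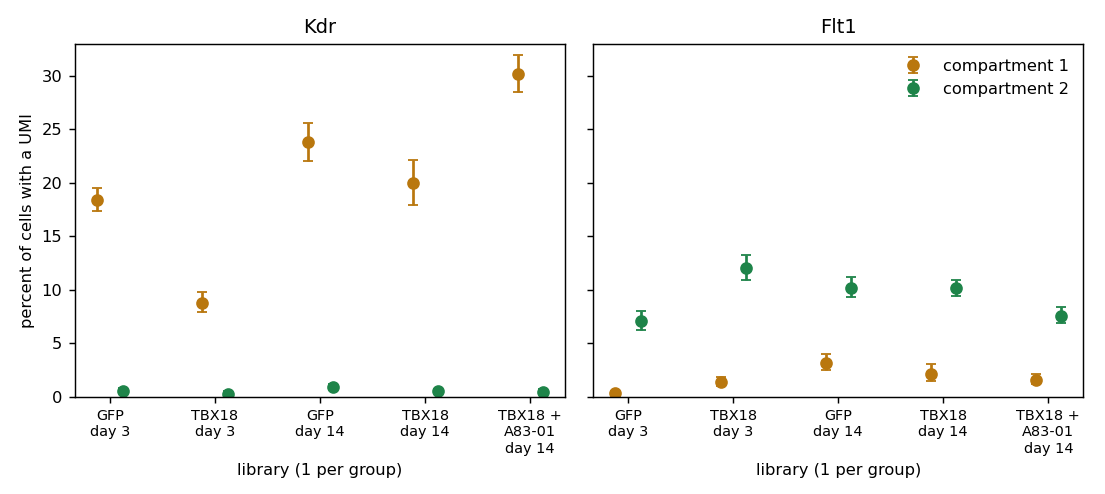
Percent of cells with at least 1 UMI (y axis) of Kdr (left) and Flt1 (right) in compartments 1 and 2 of each library (x axis, 1 library per group), with 95% Clopper-Pearson intervals as bars. Kdr lies between 8.79% and 30.2% in compartment 1 and under 1% in compartment 2, and Flt1 is higher in compartment 2 in all 5 libraries.

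The share of cells with Flt1 was lower among cells with Kdr than among cells without it, with counting intervals apart in 4 of the 5 libraries. The rule itself reads both genes, so these shares are a description. Of 919 cells with Kdr in the GFP library at day 3, 6 (0.653%, 0.240 to 1.42) had Flt1, against 3.30% (2.90 to 3.74) of cells without Kdr. In the day 3 TBX18 library the shares were 1.89% (0.698 to 4.07) and 6.69% (6.08 to 7.34). At day 14 they were 3.27% (1.98 to 5.06) and 8.13% (7.44 to 8.86) with GFP, and 1.5% (13 of 866, 0.802 to 2.55) and 5.87% (5.32 to 6.45) with A83-01. With TBX18 at day 14 they were 5.54% (3.32 to 8.61) and 8.89% (8.27 to 9.53), with intervals that overlapped. Cells with Kdr were the deeper ones in every library, for example 24923 against 23076 median UMIs with GFP at day 3.

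Within a compartment this order did not hold throughout. In compartment 1 the intervals of the shares overlapped in all 5 libraries, for example 2.06% (0.760 to 4.43) of cells with Kdr and 2.15% (1.40 to 3.15) of cells without it for TBX18 at day 14. In compartment 2 the order was turned in 4 of the 5 libraries. There Flt1 was found in 4 of 17 cells with Kdr (23.5%, 6.81 to 49.9) against 6.96% (6.10 to 7.89) of cells without it for GFP at day 3. At day 14 it was found in 6 of 36 (16.7%, 6.37 to 32.8) against 10.1% (9.22 to 11.1) with GFP and in 3 of 21 (14.3%, 3.05 to 36.3) against 7.55% (6.82 to 8.34) with A83-01. Intervals were apart in the TBX18 library of day 14 alone, with 12 of 34 (35.3%, 19.8 to 53.5) against 10.0% (9.33 to 10.8). In the day 3 TBX18 library 0 of 8 cells with Kdr had Flt1. Cells with at least 10 genes of the 34-gene list, described below, were counted in compartment 2 here. They made up 3 of the 4 cells with both genes for GFP at day 3. At day 14 they made up 5 of the 12 with TBX18 and 1 of the 3 with A83-01. The turned order thus rested in part on these few cells, and the shares without them are not given. The lower pooled shares thus went with the difference between compartments.

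The levels of both receptors over the whole culture differed between libraries, and compartment sizes moved with them. Kdr stood at 5.85 CPM (5.52 to 6.20) with GFP and 2.0 CPM (1.80 to 2.21) with TBX18 at day 3, a log2 ratio of -1.55 (-1.72 to -1.39). At day 14 Kdr stood at 6.89 CPM (6.40 to 7.42) with GFP, 3.13 CPM (2.84 to 3.44) with TBX18 and 8.07 CPM (7.61 to 8.56) with A83-01. The log2 ratio was -1.14 (-1.32 to -0.97) for TBX18 over GFP and 1.37 (1.21 to 1.53) for A83-01 over TBX18, 2 comparisons that share the TBX18 library. Within compartment 1 these ratios were -1.49 (-1.66 to -1.32) at day 3, then -0.28 (-0.47 to -0.10) and 0.39 (0.22 to 0.57) at day 14, or -0.48 and 0.86 under median-of-ratios scaling. The Kdr difference of day 3 was thus about as large inside compartment 1, while those of day 14 were smaller there, where compartment 1 itself held 35.7%, 17.5% and 36.6% of cells.

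Flt1 stood at 1.48 CPM (1.32 to 1.66) with GFP and 2.89 CPM (2.65 to 3.14) with TBX18 at day 3, a log2 ratio of 0.96 (0.75 to 1.17). Within compartment 2 that ratio was 0.71 (0.49 to 0.92). At day 14 Flt1 stood at 5.92 CPM (5.46 to 6.40) with GFP, 7.18 CPM (6.74 to 7.64) with TBX18 and 3.89 CPM (3.56 to 4.23) with A83-01. Within compartment 2 the log2 ratio of TBX18 over GFP was 0.09 (-0.07 to 0.25), an interval that includes 0, and -0.05 under median-of-ratios scaling. That of A83-01 over TBX18 was -0.50 (-0.66 to -0.34). Flt1 was thus higher with TBX18 than with GFP at day 3, and lower with A83-01 than with TBX18 alone, in the compartment where it was mainly found.

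A small set of cells in which each receptor was detected often was also present. In the day 3 TBX18 library, clustering without the rule genes gave a cluster of 8 cells. In it 6 cells had Kdr, 6 had Flt1 and 4 had both. It was chosen because it had the highest share of selected cells, so its receptor counts are a description. Found in at least 4 of its 8 cells and in under 1% of the other cells of that library were 34 genes. A cell with at least 10 of these 34 genes is called list-positive here. The median cell of every library had 0 of the 34 genes.

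Outside the library that gave the list, 12 list-positive cells were found beside 30495 others. They numbered 5 of 8128 with GFP at day 3 (0.0615%, 0.0200 to 0.144), 6 of 8337 with TBX18 at day 14 (0.0720%, 0.0264 to 0.157) and 1 of 7618 with A83-01 (0.0131%, 0.000332 to 0.0731). The GFP library at day 14 had 0 of 6424. There 3 counts correspond to 0.0467%, and the Clopper-Pearson interval used for the other libraries ends at 0.0574%. The library of the list itself held the 8 cells of the cluster, 0.123% (0.0532 to 0.243). The interval of the GFP library at day 14 overlapped those of all other libraries. The mark of 10 genes was set after these cells were seen, so the gap around it is a description. List-positive cells had 13 to 34 genes, the highest count below the mark was 8, and 4 cells in all had 5 to 9 genes.

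**Figure D3:**
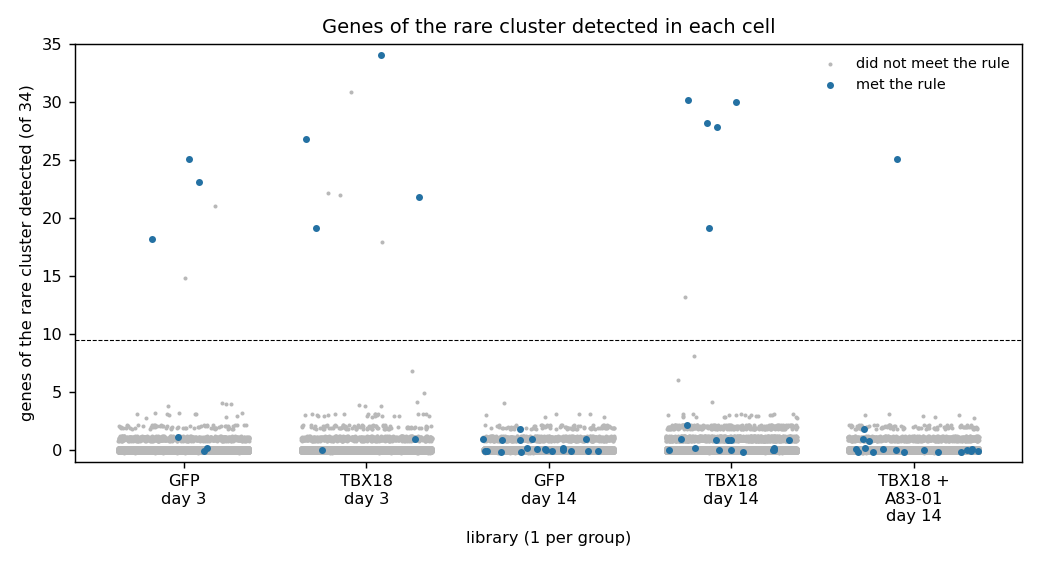
Number of the 34 genes of the rare cluster detected in each cell (y axis) by library (x axis, points spread sideways and jittered). Blue points met the rule of at least 2 of Kdr, Flt1 and Vwf, and grey points did not. The dashed line is the mark of 10 genes, set after the data were seen. List-positive cells sit at 13 to 34 genes, apart from the rest at 8 or fewer, and GFP at day 14 has none.

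The list held together in libraries that did not give it. Over the 4 other libraries, the median gene of the list was found in 75.0% of the 12 list-positive cells (range 8.33 to 100) and in 0.120% of the other cells (highest 4.51%). Since a list-positive cell is defined by the list, this describes how evenly the genes are shared. Of the 34 genes, 27 were each found in at least 50% of those 12 cells. ENSRNOG00000013324, an ID with no symbol in the tables and picked after its values were seen, was found in 8 of 8 cells of the cluster and 12 of 12 list-positive cells elsewhere, against 0.0459% of the 30495 other cells elsewhere.

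The 34 genes do not include the rule genes, and in the 4 libraries that did not give the list the receptors were read in list-positive cells. The list itself came from a cluster picked for its share of cells that met the rule. It was thus not independent of Kdr and Flt1, and the receptor levels below are a description only. With GFP at day 3, 4 of 5 list-positive cells had Kdr and 4 had Flt1, and Kdr reached 184 CPM (95.1 to 322) there against 5.79 CPM in the other cells. Flt1 reached 153 CPM (73.6 to 282) against 1.43 CPM in the same cells. In the day 14 TBX18 library, 5 of 6 had Kdr and 5 had Flt1, at 309 CPM (205 to 446) against 2.92 CPM for Kdr and 154 CPM (84.4 to 259) against 7.08 CPM for Flt1. The single cell with A83-01 had both genes. Over all 20 list-positive cells, 16 had Kdr, 16 had Flt1, 13 met the rule, 6 had 1 rule gene and 1 had none. Of these 20 cells, 3 had Vwf, all at day 14.

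List-positive cells thus made up 6 of the 5211 cells with 1 rule gene and 1 of the 31716 cells with none. They lay together within their libraries. All 5 with GFP at day 3 were in a cluster of 150 cells, and all 6 with TBX18 at day 14 in a cluster of 143 cells, both in compartment 2. None of the 20 was above the mark of the top 6% of doublet scores, a score of how much a barcode resembles the sum of 2 cells.

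The 13 selected list-positive cells were 3 with GFP and 4 with TBX18 at day 3, then 0 with GFP, 5 with TBX18 and 1 with A83-01 at day 14. With GFP at day 3 they held 6, 2 and 2 Kdr UMIs beside 5, 2 and 1 Flt1 UMIs. With TBX18 at day 3 they held 1, 6, 3 and 1 Kdr UMIs beside 3, 4, 1 and 2 Flt1 UMIs. With TBX18 at day 14 they held 2, 9, 12, 3 and 2 Kdr UMIs beside 5, 1, 6, 1 and 1 Flt1 UMIs, and the last 2 of these cells had 1 Vwf UMI each. The cell with A83-01 held 10 Kdr UMIs, 1 Flt1 UMI and 1 Vwf UMI. The sum over the rule genes had a median of 5 (range 3 to 18), and none of the 13 met the rule with only 2 UMIs.

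The other 56 selected cells were poorer in the same genes. Their sum over the rule genes had a median of 2 and a maximum of 5, and 42 of them had exactly 2. They had a higher median depth, 24402 UMIs against 15934 in the 13. Of the 34 genes, 39 of the 56 cells had none. The counts of both sets of cells overlapped between 3 and 5 UMIs. They are those the rule was read from, and 4 of the 13 cells come from the cluster that was picked for its selected cells, so they are a description only.

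**Figure D4:**
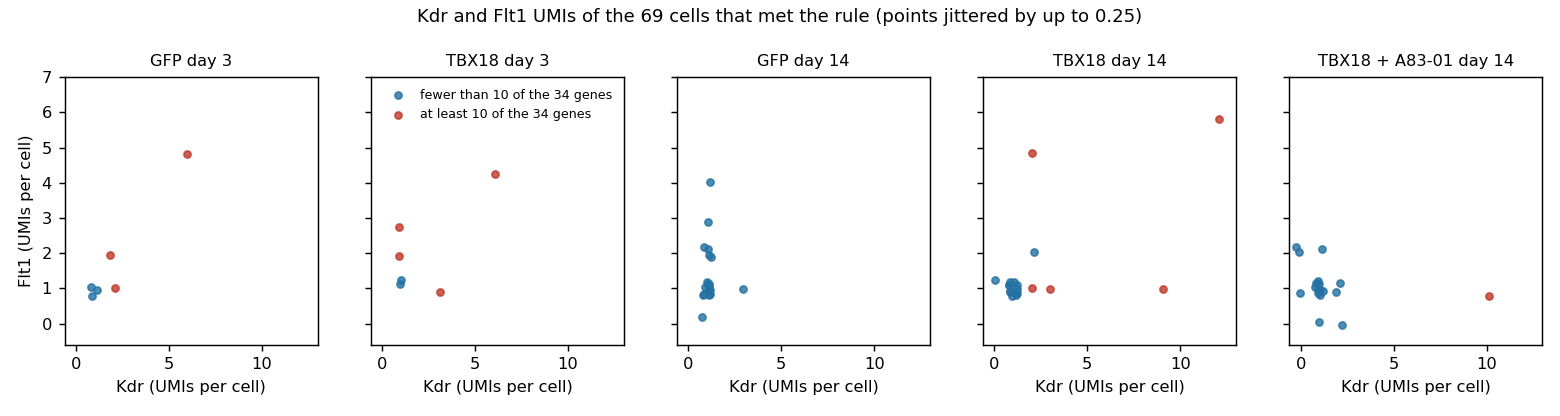
Kdr UMIs (x axis) against Flt1 UMIs (y axis) per cell for the 69 cells that met the rule, 1 panel per library, points jittered. Red points had at least 10 of the 34 genes of the rare cluster and blue points fewer. Blue points crowd at 1 UMI of each gene, while red points reach 12 Kdr and 6 Flt1 UMIs.

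Position between the compartments differed between the same cells. Gene sets were built of 179 genes at least 4-fold higher in compartment 1 and 94 genes at least 4-fold higher in compartment 2 in all 5 libraries, without the selected and the list-positive cells. With GFP at day 14, the median compartment 1 cell had 33.7% of its UMIs in the first set and 0.122% in the second, and the median compartment 2 cell had 2.77% and 6.75%. The 20 selected cells of that library had medians of 13.7% and 5.01%. The 17 selected cells without the list in the A83-01 library had 22.1% and 2.37%, where compartment 1 had 36.7% and 0.0774%. The 14 such cells with TBX18 at day 14 had 3.99% and 6.22%, nearer to compartment 2 at 2.53% and 7.08%.

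Cells with at least 8% of UMIs in the first set and at least 1% in the second numbered 2616, or 7.07% of cells. These limits were set after the plot of both sets was seen. Of the 56 selected cells without the list, 32 were among them, a share of 1.22% (0.838 to 1.72) of such cells, against 24 among 34360 other cells, 0.0699% (0.0448 to 0.104). The rule mostly asks for Kdr together with Flt1, and each was found mainly in a different compartment. The rule was thus not neutral towards cells with both sets, and the contrast is a description only. Selected cells without the list had both sets in 0 of 3 with GFP and 2 of 2 with TBX18 at day 3. At day 14 these were 14 of 20 with GFP, 5 of 14 with TBX18 and 11 of 17 with A83-01. With GFP at day 3 the order was turned, 0 of 336 cells with both sets against 3 of 7787 others, with intervals that overlapped. Cells with both sets had a median of 24350 UMIs against 18678, and 48.4% of them were above the mark of the doublet score, against 2.26%. Kdr was found in 16.0% and Flt1 in 9.48% of them, against 7.49% and 5.91% of the others. Whether a barcode with both sets held RNA of more than 1 cell was not tested. The part of the rule and of depth in the contrast was not tested either.

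None of the 13 selected list-positive cells had both sets. In the 4 libraries that held such cells, their medians for the first set were 1.78% to 3.42%, and those for the second set were 2.18% to 3.04%. The compartment 2 medians for the second set were 4.39% to 7.08%, and single cells overlapped them: in the day 3 TBX18 library 1 cell had 5.15% in the second set and another 5.82% in the first. Of the 13, 0 were above the mark of the doublet score, against 17 of the other 56 (30.4%). Of these 17, 16 were cells with both sets, of which 48.4% were above the mark over all libraries. The selected cells of the A83-01 library had the largest share above the mark, 8 of 18, against 5.33% of the other cells of that library. All 8 were cells with both sets, of which 44.6% were above the mark in that library.

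**Figure D5:**
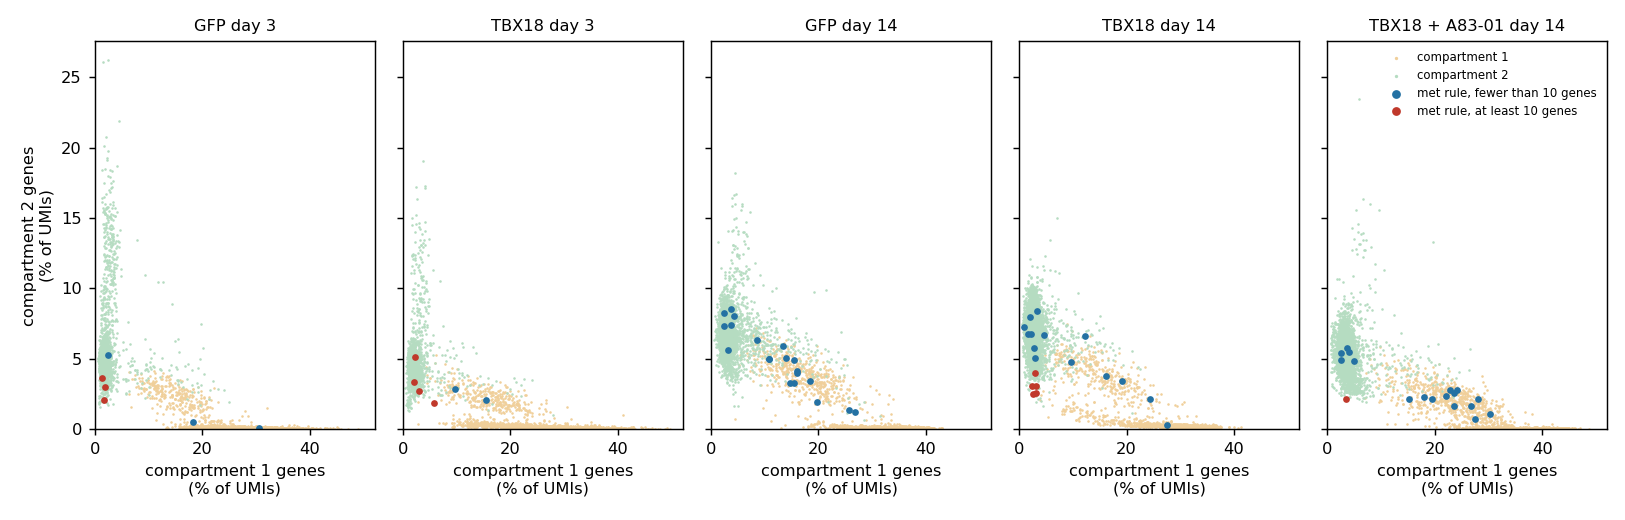
Percent of a cell's UMIs in the compartment 1 gene set (x axis) against that in the compartment 2 gene set (y axis), 1 panel per library. Small points are cells of compartments 1 and 2, red points met the rule with at least 10 of the 34 genes of the rare cluster, and blue points met it with fewer. Most blue points of GFP and A83-01 at day 14 lie on the band between the compartments, where 14 of 20 and 11 of 17 pass both limits, and no red point passes both limits.

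Leaving out cells with both sets and list-positive cells lowered the Flt1 shares of compartment 1 in all 5 libraries. Flt1 was then found in 0.0864% of compartment 1 cells with GFP and 0.224% with TBX18 at day 3, and at day 14 in 0.285% with GFP, 0.458% with TBX18 and 0.182% with A83-01. That corresponds to 4 to 7 Flt1 UMIs per library. The cells with both sets were picked in part by their compartment 2 genes, and Flt1 was found mainly in compartment 2. Their limits were also set after the data were seen, so the lower shares are a description only. In compartment 2 Flt1 was found in 7.02% to 12.1% of cells, and Kdr in 0.268% to 0.717%. Kdr within compartment 1 kept its differences, with log2 ratios of -1.48 (-1.66 to -1.30) for TBX18 over GFP at day 3, -0.27 (-0.48 to -0.06) at day 14 and 0.35 (0.16 to 0.55) for A83-01 over TBX18.

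No gene was at least 2-fold higher or lower in the selected cells of all 5 libraries. Summed over the 6 selected cells of the GFP library at day 3, 302 of 2534 genes (11.9%) that averaged 50 CPM or more were at least 2-fold higher than in all other cells of that library, and 121 (4.78%) at least 2-fold lower. In the day 3 TBX18 sums 239 of 2438 genes (9.8%) were higher and 108 (4.43%) lower. At day 14 the higher genes were 26 of 2617 (0.994%) with GFP, 82 of 2970 (2.76%) with TBX18 and 24 of 2527 (0.95%) with A83-01. The lower genes there were 13 (0.497%), 20 (0.673%) and 11 (0.435%). Of 1746 genes measured in all 5 libraries, 0 (0.0%) were at least 2-fold higher in all and 0 (0.0%) lower in all. The selected cells held 126177 UMIs with GFP and 211169 with TBX18 at day 3 and 368551 to 489530 at day 14, so counting error was largest at day 3. The libraries where list-positive cells made up more of the selected cells, 3 of 6, 4 of 6 and 5 of 19, had the larger shares of higher genes, 11.9%, 9.8% and 2.76%. They also had the smaller UMI sums, and the part of either was not tested.

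The single IDs named here were ranked by the least extreme interval end over the 5 libraries, in each direction. A shared direction in all 5 libraries was thus the ground on which they were picked, and their values are a description only. How many of all genes shared a direction is not given. ENSRNOG00000056836, the highest of the IDs by the lowest interval end over the 5 libraries, stood at 159 CPM in selected cells against 16.6 CPM in others with GFP at day 3 and at 284 against 21.8 CPM with TBX18. At day 14 it stood at 85.8 against 39.0 CPM with GFP, 383 against 106 CPM with TBX18 and 165 against 107 CPM with A83-01, the smallest difference with a log2 ratio of 0.63 (0.28 to 0.96). ENSRNOG00000018454 was lower in selected cells, with log2 ratios of -4.13 and -2.84 in the GFP and TBX18 libraries of day 3 and -3.38, -0.68 and -1.36 in the GFP, TBX18 and A83-01 libraries of day 14. ENSRNOG00000003148 was lower by a log2 ratio of -1.33 at the most, with GFP at day 3, and -0.47 at the least, with GFP at day 14. No name or function can be given for these IDs from the sources used here.

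Virus transcripts were found in selected cells of 4 of the 5 libraries, and in none of the 18 with A83-01. EGFP was found in 1 of 6 selected cells with GFP at day 3, against 35.9% of the other cells. At day 14 it was found in 7 of 20 (interval 15.4% to 59.2%), against 23.2% of the others. The human TBX18 transcript was found in 2 of 6 selected cells with TBX18 at day 3, against 17.2% of others, in 1 of 19 at day 14, against 2.74%, and in 0 of 18 with A83-01, against 3.93%. Among the 20 list-positive cells, 1 held a virus transcript. That cell, with TBX18 at day 3, had both the human TBX18 transcript and ZsGFP, a virus feature of the TBX18 libraries. ZsGFP was found in 19.7% of the cells of that library that did not meet the rule. The selected cells were few, and a difference from the other cells was not tested.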

How the data were processed

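Single-cell 3' libraries were made with the 10x kit v3.1, per the labels' protocols. STAR 2.7.8a, Partek and build Rnor_6.0 are named in the submitters' processing notes. For day 3 the authors deposited estimated counts of UMIs (99.7% whole within 0.05), rounded here for exact intervals. The day 14 tables were deposited as log2 of CPM plus 1 per cell, and UMIs were recovered by taking each cell's most common nonzero value as 1 UMI, which made 99.68% to 99.73% of values whole within 0.05. On 500 simulated cells from each day 3 library, 99.994% (GFP) and 99.993% (TBX18) of values came back exactly.

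The members and lists were chosen with earlier results of these data known. The planned design assumed counts and gene symbols. Since 0 IDs matched a symbol in the reference table (GRCr8), the planned marker and gene lists were not applied. Planned profiles between libraries needed 20 selected cells in both and were not made, since 1 library alone had 20. Cells were clustered per library (scanpy 1.11.5, leidenalg 0.10.2) on 2000 variable genes, 30 principal components, 15 neighbours and resolution 1, without rule and virus genes, and 88 of 91 clusters were joined into 2 compartments. The other 3, each under the minimum of 20 cells and among them the rare cluster, stayed in neither. The rare cluster, its 34 genes, the mark of 10, the 4-fold gene sets, and the limits of 8% and 1% were chosen after seeing the data. Scrublet's automatic call marked 0.0615%, 3.10%, 0.0156%, 0.0% and 1.29% of cells and had not worked in at least 3 libraries, so doublets were left in and the top 6% of scores marked. Levels are CPM of summed UMIs with Poisson intervals, shares carry Clopper-Pearson intervals, and ratios carry exact intervals given the total. IDs were named by the inner interval end over 5 libraries, at most 2 per direction.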

Additional observations from a re-analysis of the deposited data

Results flagged for a closer look

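In compartment 1, Flt1 was higher with TBX18 than with GFP at day 3 (log2 ratio 1.76, 0.99 to 2.59, from 58 and 19 UMIs) and lower at day 14 (-0.60, -1.16 to -0.06, from 42 and 97 UMIs). The opposite directions drew attention, and whether the days differ was not tested. Without cells that carried both gene sets and without list-positive cells, 7 and 4 UMIs remained at day 3 and 6 and 7 at day 14, with log2 ratios of 1.03 (-0.95 to 3.25) and 0.37 (-1.48 to 2.17).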

How the results depend on the processing

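Shares of selected cells after thinning to 5000 UMIs were 0.0252% with GFP and 0.0% with TBX18 at day 3. At day 14 they were 0.0% with GFP, 0.0720% with TBX18 and 0.0263% with A83-01. With all 3 rule genes required, they were 0.0%, 0.0240% and 0.0131% in the same 3 libraries. With at least 10 of the 34 genes required as well, an alternative chosen after seeing the data, they were 0.0%, 0.0600% and 0.0131% there. Leaving out the top 6% of doublet scores gave 0.139% with A83-01. Genes at least 2-fold higher in all 5 libraries numbered 1 of 3642 with a minimum of 20 CPM and 1 of 1708 without the top doublet scores, against 0. The other 27 values of these results stayed within their counting interval or within 1.5 times the count. List-positive cells numbered 5, 8, 0, 6 and 1 with lists cut at 0.5% or 2% of other cells. With a list from the 4 cells of the rare cluster that did not meet the rule they numbered 5, 9, 0, 7 and 1. Limits for both gene sets of 5% and 1%, 8% and 0.5%, or 10% and 2% placed 32, 34 and 23 of the 56 cells among them. Median-of-ratios scaling shifted log2 ratios between libraries of 1 day by -0.20 to 0.46, the largest for A83-01 over TBX18 in compartment 1, where Kdr went from 0.39 to 0.86. For Flt1, TBX18 over GFP in compartment 2 at day 14, it gave -0.05 in place of 0.09. No paired analysis was possible because each group has 1 library and no test was made. The alternatives that needed the endothelial identity list, and those on profiles between libraries, were not run.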
